A study of Mus musculus with 12 samples.

Results

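The change in translational efficiency (TE) between RAW 264 cells given LPS plus DEX and basal RAW 264 cells was measured in 8 of the 12 libraries of the study and tested for 9369 of 9621 listed genes. RAW 264 is a mouse macrophage line. LPS (lipopolysaccharide), the outer-membrane glycolipid of Gram-negative bacteria, to which macrophages respond through Toll-like receptors, was given at 100 ng/ml, and DEX (dexamethasone, a synthetic glucocorticoid) at 10 µM with it, for 30 min. Basal cells received neither. Cells of both groups then received cycloheximide at 100 µg/ml, which holds cytosolic ribosomes in place, and each group gave 2 poly(A) mRNA libraries and 2 libraries of ribosome-protected fragments (RPF, or footprints). All libraries come from 1 cell line, the design text calls the 2 replicates of a group biological and independent, and p values rest on the spread between these pairs.

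TE is the footprint level of a gene over its mRNA level. Ribosomes decode an mRNA after initiation factors have brought them to its start codon, and more footprints per mRNA mean more ribosomes on each copy, or ribosomes that move more slowly. Some mRNAs, those of the ribosomal proteins above all, begin with a C and a run of pyrimidines (a TOP sequence) through which growth signalling sets their translation. In macrophages, LPS induces immediate early and NF-kB target genes within minutes, and glucocorticoids act through the glucocorticoid receptor on genes that limit inflammation.

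For each gene, the footprint change (log2, LPS + DEX minus basal) minus the mRNA change is the TE change. Each assay was first centred on the median over the tested genes, so a TE change of 0 is that of the typical gene, and 1 unit of log2 is a change of 2-fold. The median mRNA change before centring was 0.28, the median footprint change -0.05, and the TE centre that was taken off was -0.33, so every TE change given here is relative to that shift. Values are CPM, reads divided by the library total, with no scaling for gene length, and a TE change was called where limma gave a Benjamini-Hochberg adjusted p under 0.05 over all genes tested.

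The 8 libraries held 1310291 to 2529666 reads, so that 3 reads, the limit that a count of 0 allows, corresponded to 1.19 to 2.29 CPM (counting error only). mRNA basal replicate 1 stood apart: its Spearman correlation over genes with the other 3 mRNA libraries was 0.781 to 0.831, against 0.894 to 0.967 among those 3 and 0.961 to 0.983 among the footprint libraries. It held 2497 CPM of 6 listed markers of other cell types, against 43.8 to 123 CPM in the other 3 mRNA libraries and 206 to 237 CPM in the footprint libraries, with no marker of the 6 at 0. The part of these marker transcripts in the results was not tested. The counts over all genes, and the results of some lists and genes but not all, are given with and without this library. Of the listed genes, 81 were at 50 CPM or more in it and at 5 CPM or less in the other mRNA libraries of the study. Of these, 7 were tested and 0 called. That 0 shows little, since so wide a gap between the 2 basal libraries itself raises the spread these genes are tested against. The 29 listed macrophage markers summed to 9309 to 14263 CPM, with none at 0 in any library. In such bulk libraries, fewer cells with a transcript and less of it per cell cannot be told apart.

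TE was higher after LPS + DEX for 401 of 9369 genes (4.28%) and lower for 275 (2.94%). Without mRNA basal replicate 1, 425 of 9316 genes (4.56%) were higher and 308 (3.31%) lower; 348 of the 401 and 219 of the 275 were called again, and 0 changed sign. Without centring the split was 205 higher and 1045 lower. In size, 258 of the higher and 187 of the lower genes changed by at least 2-fold.

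The replicates of RPF LPS + DEX lay closest to each other of all groups (median difference in log2 0.182, against 0.262 for mRNA basal). The number of calls rested strongly on the footprint libraries of LPS + DEX. Without its replicate 1, 53 genes were higher and 12 lower, and without its replicate 2, 71 and 15. Without RPF basal replicate 1 the counts were 191 and 59, without RPF basal replicate 2 167 and 64, without mRNA LPS + DEX replicate 1 267 and 59, and without mRNA basal replicate 2 677 and 490. With limma-voom in place of limma-trend they were 363 and 126. Leaving a library out also takes its pair from the spread behind the p values, so fewer calls need not mean smaller changes. Without RPF LPS + DEX replicate 1 or 2 the median TE change of the ribosomal proteins was 0.94 each time, as with all 8 libraries. For nuclear oxidative phosphorylation it was 0.60 or 0.56, against 0.59. The median of the initiation factors moved more, to 0.17 or 0.43, against 0.29. A total of 58 genes, 47 higher and 11 lower, were called with each of the 8 libraries left out in turn, and 25 of these were ribosomal proteins. Of the genes named in the text by a fixed rule, 93 were called, and 15 of them in each of the 8 omissions: Neurl4, Fblim1, Rpl31, Hspe1, Rps15a, Rpl30, Eif1, Tpt1, Actb, Hist1h2ap, Nob1, Hist1h2ah, Sdc4, Mbd6 and Cdan1. The other 78 of the 93 calls were lost in at least 1 omission, with their sign kept.

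The called TE changes lay mostly in the mRNA. Among the 401 higher genes the median mRNA change was -0.93 and the median footprint change 0.19, and the mRNA change was the larger of the 2 in 373 genes (93.0%). Among the 275 lower genes the medians were 0.94 and -0.22, and the mRNA change was the larger in 221 (80.4%). The 2 changes had opposite signs in 307 of the higher and 202 of the lower genes. Genes were called on the difference of the 2 changes, so opposite signs follow in part from the call and are no separate result. Over all tested genes, the middle part of the mRNA changes (lower to upper quartile) ran from -0.43 to 0.43 and that of the footprint changes from -0.23 to 0.22. The mRNA changes were thus the wider over all genes, and a larger mRNA part need not be particular to the called genes. The same shares over all tested genes are not given.

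**Figure D1:**
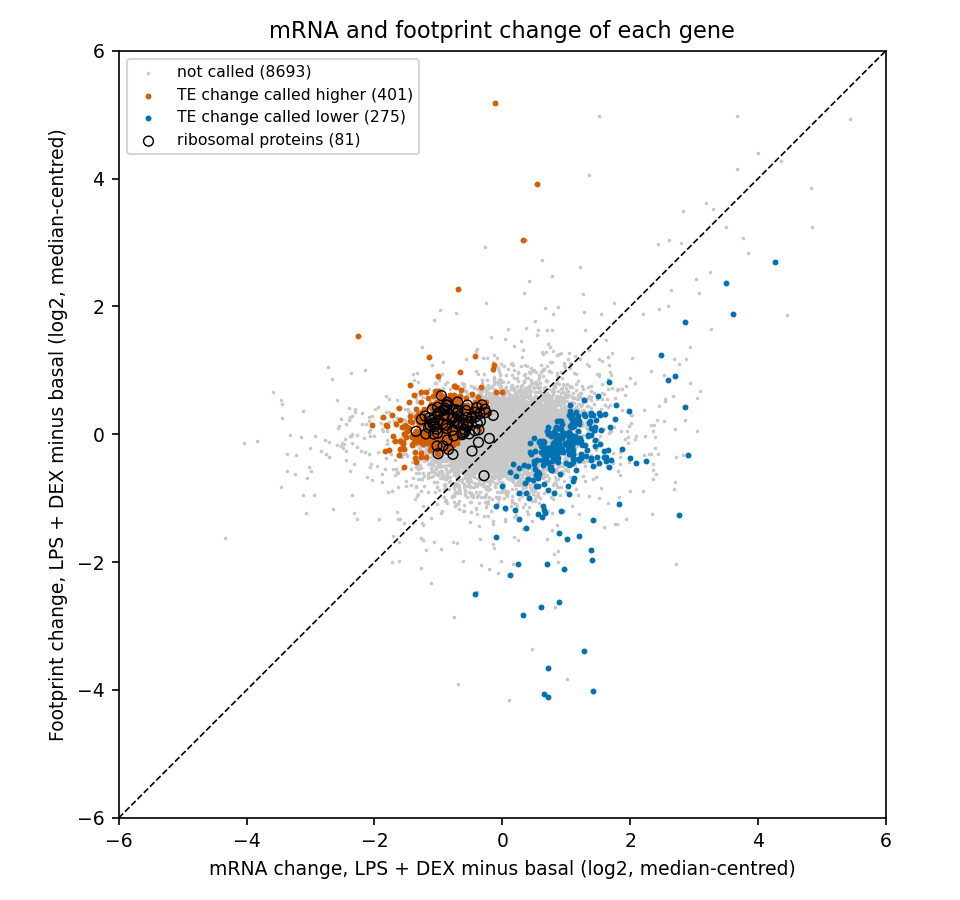
Footprint change against mRNA change of the tested genes (log2, LPS + DEX minus basal, each centred on its median); the dashed line marks a TE change of 0, and 1 gene lies outside the axes. The 401 genes with higher TE lie left of the line, most with a lower mRNA level and a footprint change near 0, and 71 of the 81 ribosomal proteins (circles) are among them.

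Ribosomal proteins formed the largest group with higher TE. All 81 listed members were tested, 71 of them had higher TE and 0 lower, against 4.28% and 2.94% of all genes, and their median TE change was 0.94 (all genes, -0.01). Their summed mRNA level was 151379 and 163375 CPM in the basal libraries and 118170 and 118993 CPM in the LPS + DEX libraries, and their summed footprint level 74875 and 78019 CPM against 83905 and 84334 CPM. Both LPS + DEX libraries were thus lower than both basal libraries in mRNA and higher in footprints. The median mRNA change of the members was -0.77 and the median footprint change 0.20.

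The count of ribosomal proteins with higher TE was 69 without mRNA basal replicate 1, 47 without centring, 26 without RPF LPS + DEX replicate 1 and 30 without its replicate 2, and none was called lower in those 4 settings except 1 without centring. Over the 16 ways to take 1 library from each group, the median of the members ran from 0.79 to 1.05. Ribosomal protein genes have many processed copies in the genome, and the deposited table also lists some of these under names ending in -ps; the sources used here do not state how reads were shared among copies, and single values are uncertain. Of the 401 higher genes, 67 carried no symbol, a Gm number or a -ps name. Some of these, such as Rpl9-ps1, Rps12-ps3 and Rpl21-ps4, were also called with each library left out in turn, beside the listed ribosomal proteins.

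Rpl31, a protein of the large subunit, had the largest value among them. Its mRNA was at 3210 and 3346 CPM in basal cells and 1884 and 2242 CPM with LPS + DEX, and its footprints at 926 and 1184 CPM against 1558 and 1516 CPM. Neither assay overlapped between the groups, and the TE change was 1.56 ± 0.18 (SE; limma, adjusted p = 0.00269). Rps15a, of the small subunit, had mRNA at 2326 and 2636 CPM against 1195 and 1308 CPM while its footprints were at 1074 and 1122 CPM in basal cells and 1237 and 1255 CPM after treatment. Its TE change was 1.5 ± 0.13 (adjusted p = 0.00135). Rpl30 followed the same pattern at 1.49 ± 0.18 (adjusted p = 0.00286), with mRNA at 1415 and 1628 CPM in basal cells and 708 and 899 CPM with LPS + DEX. For Rpl39 the TE change was 1.49 ± 0.26 (adjusted p = 0.0126).

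Among the 10 members that were not called were Rplp0 and Rps2, chosen as examples after their values were seen. Rplp0, a protein of the ribosomal stalk, had a TE change of 0.14 ± 0.15, and its mRNA overlapped between the groups (3987 and 4508 CPM in basal cells, 4761 and 4206 CPM with LPS + DEX). Rps2 was the 1 member below 0. Its mRNA was at 1805 and 2010 CPM against 1948 and 1848 CPM and its footprints at 801 and 846 CPM against 491 and 522 CPM, with a TE change of -0.36 ± 0.13 (adjusted p = 0.132).

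To show what the starts of these transcripts look like, the 30 bases around the annotated start (10 before it and 20 from it on) are given for the 6 called ribosomal proteins with the highest TE change that have 1 entry in the RefSeq promoter table (GRCm38.p6), and for 2 genes with lower TE, Rela and Sdc4. Capitals mark a C within 2 bases of the start with at least 4 further pyrimidines (C or T) behind it, read on the transcript strand only. Rps15a alone among the 8 has such a run with its C within 2 bases of the annotated start. Runs that begin farther from it, as in the stretches of Rpl31 and Rpl39, are not marked. Nothing is said about other start sites of the same genes.
Rps15a (chr7:118116128-118116157, minus strand): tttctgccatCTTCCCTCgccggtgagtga
Rpl31 (chr1:39367841-39367870, plus strand): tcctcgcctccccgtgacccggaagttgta
Rpl39 (chrX:37085203-37085232, minus strand): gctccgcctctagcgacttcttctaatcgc
Rpl36al (chr12:69184048-69184077, minus strand): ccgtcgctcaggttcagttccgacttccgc
Rpl23 (chr11:97782420-97782449, minus strand): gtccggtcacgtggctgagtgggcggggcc
Rpl9 (chr5:65391412-65391441, minus strand): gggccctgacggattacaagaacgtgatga
Rela (chr19:5637531-5637560, plus strand): tgcggagcttgtagtcgggccggcctcggg
Sdc4 (chr2:164443169-164443198, minus strand): ccgctccgggccactggtttgcgctgttga
Of the 32851 windows of the table, 2942 (8.96%) have such a run with its C within 2 bases of the annotated start. The table matched 7213 of the 9369 tested genes (77.0%) and 60 of the 81 ribosomal proteins (74.1%), which is under the 80% set for a comparison, so a comparison of the share between genes with higher and lower TE is void and is not given.

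Of 20 other mRNAs known to begin with a TOP sequence, 5 had higher TE (25%, all genes 4.28%) and 0 lower. The 5 were Tpt1, Nap1l1, Npm1, Eef1b2 and Naca. The median was 0.47, which without centring is 0.33 lower. Tpt1, a growth-related protein, was at 2933 and 3229 CPM in basal mRNA and 1764 and 2274 CPM with LPS + DEX, with footprints at 1110 and 1172 CPM and at 1482 and 1414 CPM. The groups did not overlap in either assay, and the TE change was 1.30 ± 0.17 (adjusted p = 0.00399). The 2 best known members were not called. Eef1a1, which brings aminoacyl-tRNA to the ribosome, had mRNA at 8357 and 8948 CPM against 10085 and 11485 CPM and footprints at 10449 and 11308 CPM against 13453 and 14228 CPM, with a TE change of 0.37 ± 0.12 (adjusted p = 0.096). For Eef2, which moves the ribosome along, the TE change was -0.35 ± 0.13 (adjusted p = 0.142). With RPF LPS + DEX replicate 1 or replicate 2 left out, 1 member was called each time. The count was also moved by over 1.5 times without mRNA LPS + DEX replicate 2 (9 members), without RPF basal replicate 2 (3), without centring (3) and with all 12 libraries in the fit (8).

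Among 34 initiation factors, 3 had higher TE (8.82%, all genes 4.28%) and 1 lower (2.94%, as over all genes). Eif1 and Eif1ax, small factors that help the ribosome find the start codon, had TE changes of 1.44 ± 0.17 (adjusted p = 0.00286) and 1.45 ± 0.30 (adjusted p = 0.0235), and Eif3j1, a loosely bound subunit of the factor eIF3, 1.68 ± 0.32 (adjusted p = 0.0163). Eif1 mRNA was at 430 and 494 CPM in basal cells and 279 and 306 CPM with LPS + DEX, its footprints at 208 and 186 CPM and at 270 and 266 CPM. Eif4g1, the large scaffold of the cap-binding complex, went the other way at -0.79 ± 0.15 (adjusted p = 0.0155), with mRNA at 428 and 480 CPM against 995 and 884 CPM and footprints that overlapped. Without mRNA LPS + DEX replicate 2, 11 were higher and 3 lower, and without either footprint library of LPS + DEX 1 was higher and 0 lower. Without RPF basal replicate 1 the counts were 1 and 0, and without RPF basal replicate 2 1 and 1. Without centring 3 were higher and 6 lower.

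Nuclear genes of oxidative phosphorylation, whose proteins are imported into mitochondria, were the next group. Of 76 members, 30 had higher TE (39.5%, all genes 4.28%) and 0 lower. The median TE change was 0.59, with a median mRNA change of -0.71 and a median footprint change of -0.04. The largest changes were those of Atp5k and Atp5j, subunits of the ATP synthase, at 1.72 ± 0.32 and 1.55 ± 0.26 (adjusted p = 0.0146 and 0.0103), Ndufab1, the acyl carrier protein of complex I, at 1.68 ± 0.40 (adjusted p = 0.0382), and Cox7b, of complex IV, at 1.47 ± 0.22 (adjusted p = 0.00688). Cox7b mRNA was at 258 and 282 CPM in basal cells and 120 and 166 CPM with LPS + DEX; its footprints were at 283 and 291 CPM and at 327 and 338 CPM. Ndufab1 rested in part on the library that stood apart: its basal mRNA was at 367 CPM there and 168 CPM in replicate 2, and without that library its TE change was 1.07. The core subunit Atp5a1 of the ATP synthase, given as a contrast chosen after its value was seen, had a TE change of -0.06 ± 0.12.

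With mRNA basal replicate 1 left out, 27 of the 76 were called higher. The count was 0 without RPF LPS + DEX replicate 1, 4 without its replicate 2, 14 without RPF basal replicate 1, 9 without RPF basal replicate 2, 20 without mRNA LPS + DEX replicate 1 and 14 without centring. Proteins of the mitochondrial ribosome, also nuclear-encoded, had higher TE in 10 of 77 members (12.99%, all genes 4.28%). Lower TE was called in 0 of these proteins (all genes 2.94%), and their median was 0.46. Mrps21 had the largest change among them at 1.41 ± 0.21 (adjusted p = 0.00697), with mRNA at 184 and 212 CPM against 119 and 115 CPM and footprints at 80.9 and 70.4 CPM against 100.4 and 88.9 CPM. That count was 0 and 1 without RPF LPS + DEX replicates 1 and 2, 2 and 3 without RPF basal replicates 1 and 2, 6 without mRNA LPS + DEX replicate 1 and 2 without centring.

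The 13 genes encoded in mitochondria themselves are decoded by mitochondrial ribosomes, which cycloheximide does not hold. Of these, mt-Nd3 and mt-Nd2, both subunits of complex I, had higher TE (15.4%, all genes 4.28%) and 0 had lower. mt-Nd3 mRNA was at 1294 and 1869 CPM in basal cells and 417 and 687 CPM with LPS + DEX, and its footprints at 65.6 and 81.5 CPM and at 85.9 and 71.4 CPM. The mRNA groups did not overlap while the footprint groups did, and the TE change was 1.97 ± 0.35 (adjusted p = 0.013). For mt-Nd2 it was 1.53 ± 0.36 (adjusted p = 0.0349). Summed over the 13 genes, mRNA was at 60295 and 76920 CPM in basal cells and 23014 and 43334 CPM with LPS + DEX, and footprints at 4111 and 3653 CPM and at 2168 and 1897 CPM. Both sums were thus lower after treatment. The 2 mRNA libraries of LPS + DEX differed from each other more than the 2 footprint libraries did, and the median TE change of the list ran from -0.56 to 1.39 over the 16 library choices, around 0.48 with all 8 libraries. With 1 library left out, 0 to 5 members were called: 0 without either RPF LPS + DEX library or RPF basal replicate 1, 1 without RPF basal replicate 2 or mRNA LPS + DEX replicate 1, 3 without either mRNA basal library and 5 without mRNA LPS + DEX replicate 2.

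**Figure D2:**
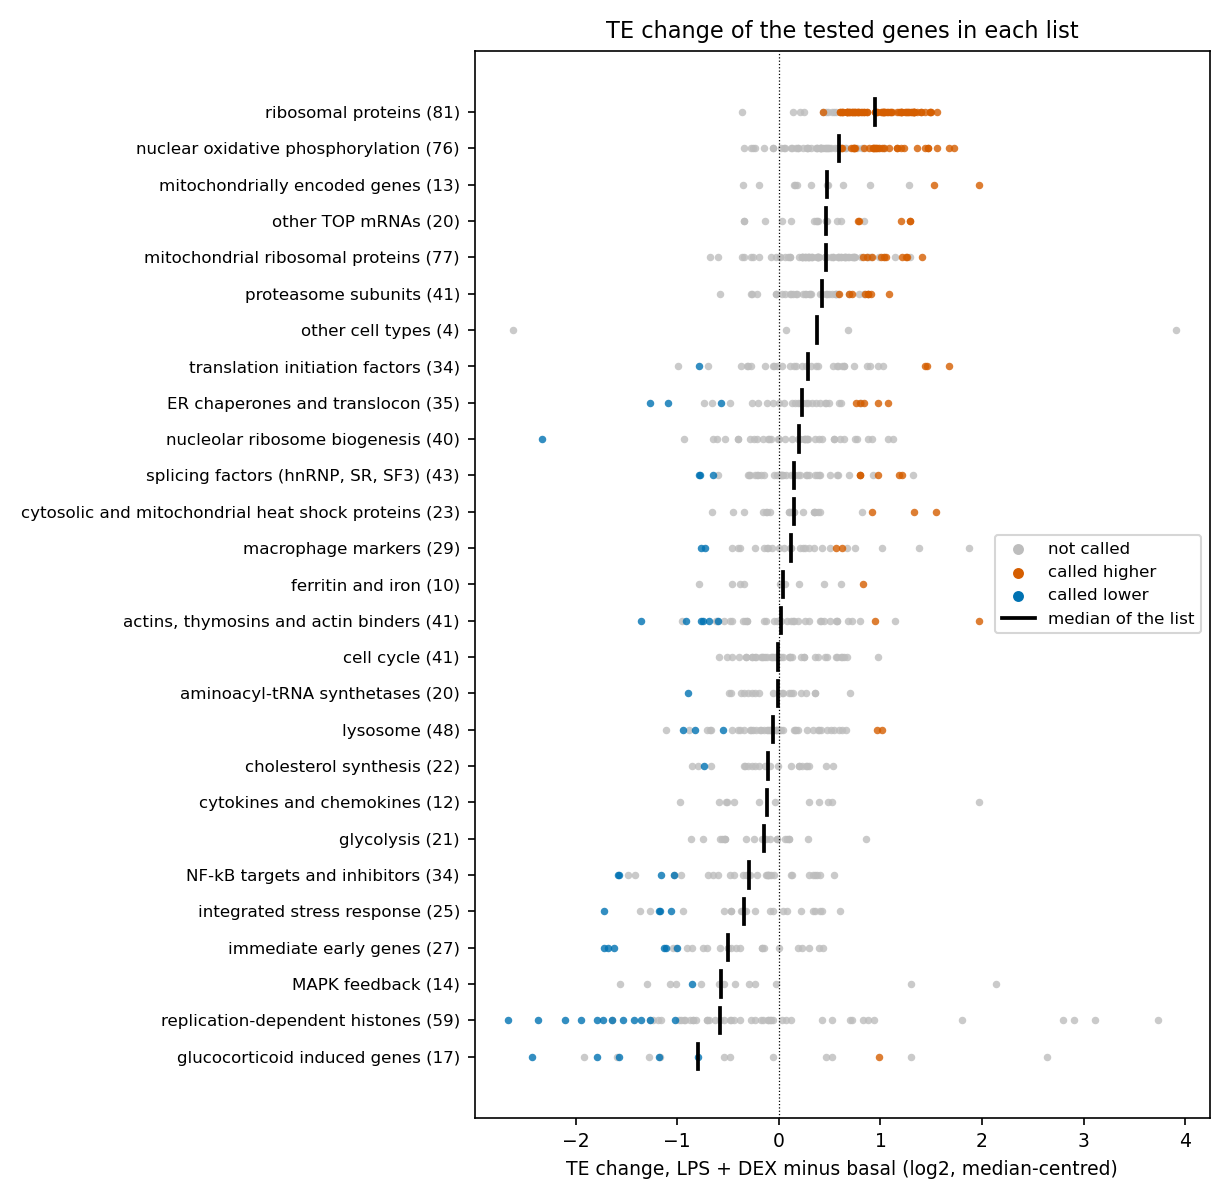
TE change (log2, LPS + DEX minus basal, median-centred) of each tested gene by list, with the number tested in parentheses; black bars are list medians and colours mark called genes. Ribosomal proteins (median 0.94) and nuclear oxidative phosphorylation (0.59) stand at the top and glucocorticoid induced genes (-0.80) at the bottom with all 8 libraries.

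Of 27 immediate early genes, which respond to a stimulus without new protein synthesis, 6 had lower TE (22.2%, all genes 2.94%) and 0 higher. The median TE change was -0.50, from a median mRNA change of 1.39 and a median footprint change of 0.59. The summed mRNA of the list was 978 and 876 CPM in basal cells and 4996 and 4577 CPM with LPS + DEX, and the summed footprints 1088 and 1100 CPM against 2199 and 2068 CPM. Jun, a subunit of the transcription factor AP-1, was at 18.3 and 18.4 CPM in basal mRNA and 262 and 267 CPM with LPS + DEX, with footprints at 35.1 and 25 CPM and at 158 and 146 CPM. Its TE change was -1.13 ± 0.26 (adjusted p = 0.032), and both assays were higher after treatment with no overlap.

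Ppp1r15a, which directs the phosphatase that reverses phosphorylation of eIF2, was the lowest of the list. Its mRNA was at 39.3 and 47.6 CPM in basal cells and 667 and 643 CPM with LPS + DEX, and its footprints at 3.05 and 4.60 CPM against 15.1 and 16.9 CPM. The TE change was -1.72 ± 0.30 (adjusted p = 0.0126), on few basal footprints. Srf, a transcription factor of the serum response, had a TE change of -1.69 ± 0.36 (adjusted p = 0.0259), and Plk3, a stress kinase, -1.62 ± 0.42 (adjusted p = 0.0498; 0.059 without mRNA basal replicate 1). The other 2 called members were Junb and Ier5. Fos, the partner of Jun, was not called, with mRNA at 3.39 and 4.33 CPM against 53.0 and 61.1 CPM, footprints at 2.29 and 3.95 CPM against 36.9 and 52.4 CPM and a TE change of 0.23 ± 0.46. Ier3 at 0.44 ± 0.29 and the mRNA decay factor Zfp36 at 0.39 ± 0.73 were also not called, and Zfp36 was at -0.27 without mRNA basal replicate 1. The count of lower members was 0 without either RPF LPS + DEX library or mRNA LPS + DEX replicate 1, 2 without RPF basal replicate 1, 4 without RPF basal replicate 2, 2 with all 12 libraries and 10 without centring.

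Among 34 NF-kB targets and inhibitors, 4 had lower TE (11.8%, all genes 2.94%) and 0 higher, with a median of -0.30. The 4 were Rela, Tnfaip3, Traf2 and Icam1. Rela, the p65 subunit of NF-kB, was at 31.9 and 35.2 CPM in basal mRNA and 108 and 83.3 CPM with LPS + DEX, and its footprints at 58.0 and 51.3 CPM and at 33.3 and 47.4 CPM. mRNA was thus higher and footprints lower with no overlap, and the TE change was -1.59 ± 0.31 (adjusted p = 0.0178). Tnfaip3 (A20), a ubiquitin-editing inhibitor of NF-kB, was higher after treatment in both assays, at 9.49 and 13.5 CPM against 273 and 302 CPM in mRNA and 11.4 and 19.1 CPM against 107 and 88.9 CPM in footprints. Its TE change was -1.57 ± 0.36 (adjusted p = 0.0345). Nfkbia (IkB alpha), the inhibitor that holds NF-kB in the cytosol, was at 174 and 152 CPM against 1086 and 1077 CPM in mRNA and 217 and 226 CPM against 859 and 813 CPM in footprints. It was not called with 8 libraries (-0.48 ± 0.15, adjusted p = 0.0882) and was called without mRNA basal replicate 1 (-0.62, adjusted p = 0.0487). Nfkbiz, a nuclear cofactor of NF-kB, was not called (-0.08 ± 0.35). The number of lower members was 0 without RPF LPS + DEX replicate 1, RPF basal replicate 2 or mRNA LPS + DEX replicate 1, 1 without RPF LPS + DEX replicate 2 or RPF basal replicate 1, 2 with all 12 libraries, and 7 without centring.

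None of the 12 cytokines and chemokines was called in either direction, against 4.28% higher and 2.94% lower over all genes. In so short a list, 0 calls is close to those shares. The median TE change of the list was -0.12. Tnf, the main early cytokine of macrophages, was at 80 and 87.7 CPM in basal mRNA and 1486 and 1152 CPM with LPS + DEX, with footprints at 58.8 and 48.0 CPM and at 1057 and 813 CPM. Both assays were thus far higher after treatment, with no overlap, and the TE change of 0.48 ± 0.25 was not called (adjusted p = 0.265). The chemokine Ccl3 had mRNA at 94.9 and 103 CPM against 324 and 299 CPM and a TE change of -0.04 ± 0.21, and Ccl4 had one of -0.44 ± 0.27. Cxcl2, a neutrophil attractant, was at 2.71 and 12.4 CPM in basal mRNA and 390 and 355 CPM with LPS + DEX. Its TE change was -0.52 ± 0.71 and turned to 0.37 without mRNA basal replicate 1. A miss of the threshold does not show that TE was unchanged for these genes.

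Genes known to be induced by glucocorticoids had a median TE change of -0.80. Of 17 members, 5 had lower TE (29.4%, all genes 2.94%) and 1 higher (5.88%, all genes 4.28%). The median mRNA change of the members was 1.26 and their median footprint change 0.28. Sdc4, a cell surface heparan sulfate proteoglycan, was at 21.0 and 28.7 CPM in basal mRNA and 245 and 206 CPM with LPS + DEX, with footprints at 114 and 109 CPM and at 161 and 130 CPM. Its mRNA thus moved far more than its footprints, and the TE change was -2.43 ± 0.26 (adjusted p = 0.0025). Per1, a clock gene with a glucocorticoid response element, was at 19.0 and 26.5 CPM against 193 and 176 CPM in mRNA and 29.0 and 19.7 CPM against 53.2 and 36.5 CPM in footprints, at -1.79 ± 0.37 (adjusted p = 0.0225). Cebpb, a transcription factor whose mRNA gives several protein forms from different start codons, was at -1.18 ± 0.28 (adjusted p = 0.0364) and at -1.53 without mRNA basal replicate 1.

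The other lower members were Tnfaip3 and Mt1, a metallothionein, and the 1 higher member was Anxa1, a protein that mediates anti-inflammatory glucocorticoid effects, at 0.99 ± 0.21 (adjusted p = 0.0269). Dusp1, the phosphatase that switches off MAP kinases, was at 52.2 and 15.7 CPM in basal mRNA and 441 and 483 CPM with LPS + DEX, with footprints at 7.63 and 5.26 CPM and at 223 and 221 CPM. The resulting TE change was 1.30 ± 0.60 (adjusted p = 0.222), and 0.42 without mRNA basal replicate 1. Tsc22d3 (GILZ) had mRNA at 1.36 and 5.41 CPM against 11.5 and 9.30 CPM and a TE change of -1.92 ± 0.75 that was not called (adjusted p = 0.156). Fkbp5, a cochaperone of the receptor, was at 0.46 ± 0.29. The number of lower members was 1 without either RPF LPS + DEX library or mRNA LPS + DEX replicate 1, 2 without either RPF basal library and 8 without mRNA basal replicate 2.

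**Figure D3:**
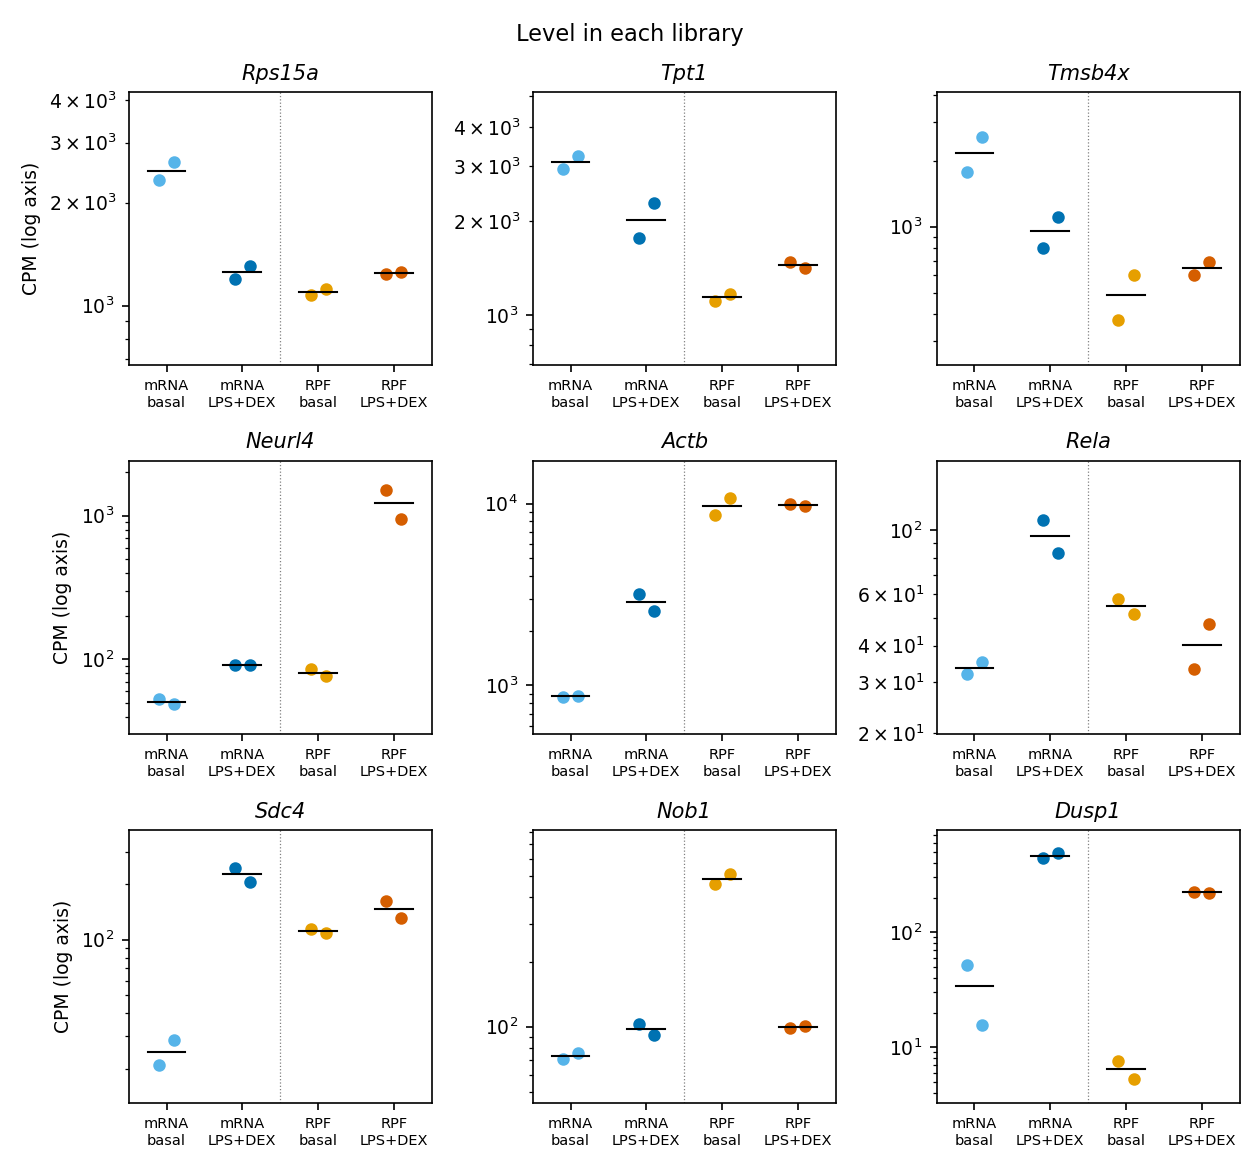
CPM of 9 genes in each library on a log axis; points are the 2 libraries of a group, replicate 1 on the left, and lines their mean. In Rps15a, Tpt1 and Tmsb4x the mRNA is lower after LPS + DEX, in Actb, Rela and Sdc4 it is higher, in Neurl4 and Nob1 the footprints carry the change, and in Dusp1 both assays are higher.

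The integrated stress response list, genes read through upstream open reading frames or induced by Atf4, had 4 of 25 members lower (16%, all genes 2.94%) and 0 higher. Slc7a5, an amino acid transporter, was at -1.17 ± 0.26 (adjusted p = 0.0304) and Ppp1r15b, the constitutive relative of Ppp1r15a, at -1.06 ± 0.22 (adjusted p = 0.0241); Ppp1r15a and Cebpb were the other 2. Atf4 itself was not called: its mRNA was at 563 and 561 CPM against 487 and 426 CPM, its footprints at 78.6 and 73.7 CPM against 39.3 and 35.5 CPM, and its TE change -0.37 ± 0.18. Of 20 aminoacyl-tRNA synthetases, Vars alone was called (5% lower, all genes 2.94%), at -0.89 ± 0.19 (adjusted p = 0.0267). In the MAP kinase feedback list 1 of 14 was lower (7.14%, all genes 2.94%), the mRNA decay factor Zfp36l2 at -0.85 ± 0.20 (adjusted p = 0.0386). Leaving out either RPF LPS + DEX library or mRNA LPS + DEX replicate 1 left 0 calls in these 3 lists, leaving out either RPF basal library left 1 in the stress response list, and without centring 9, 4 and 4 members were lower.

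The list of actins, thymosins and actin binders held calls in both directions, the higher ones at about the share of all genes. Actb, beta actin, was at 868 and 877 CPM in basal mRNA and 3171 and 2579 CPM with LPS + DEX, while its footprints were at 8690 and 10712 CPM and at 9924 and 9652 CPM. The mRNA groups stood apart and the footprint groups overlapped, and the TE change was -1.36 ± 0.17 (adjusted p = 0.00311). Tmsb4x, thymosin beta 4, which binds actin monomers, went the other way, with mRNA at 1779 and 2578 CPM against 799 and 1106 CPM and footprints at 374 and 598 CPM against 604 and 693 CPM. The TE change came to 1.97 ± 0.34 (adjusted p = 0.0125). In the list of 41, 2 were higher, Tmsb4x and the myosin light chain Myl6 (0.94 ± 0.15, adjusted p = 0.00913). Another 6 were lower (14.6%, all genes 2.94%), among them Tln1, which links integrins to actin, at -0.91 ± 0.19 (adjusted p = 0.0233). Without RPF LPS + DEX replicate 1 or 2, 0 were higher and 1 lower; without mRNA LPS + DEX replicate 2, 4 were higher and 12 lower; without mRNA LPS + DEX replicate 1, 3 and 2; without RPF basal replicate 1 or 2, 2 and 1; without centring, 2 and 13.

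Among 41 proteasome subunits 8 had higher TE (19.5%, all genes 4.28%) and 0 lower, with a median of 0.43. Psma3, of the outer ring of the core particle, was at 1.09 ± 0.19 (adjusted p = 0.0125), with mRNA at 276 and 324 CPM against 151 and 176 CPM and overlapping footprints. In the heat shock list 3 of 23 were higher (13.04%, all genes 4.28%) and 0 lower (all genes 2.94%). Hspe1, the cofactor of the mitochondrial chaperonin, led them at 1.55 ± 0.18 (adjusted p = 0.00269), with mRNA at 746 and 829 CPM against 346 and 333 CPM and footprints at 601 and 500 CPM against 595 and 510 CPM. Of 35 genes of the endoplasmic reticulum, 5 were higher (14.3%, all genes 4.28%) and 3 lower (8.57%, all genes 2.94%). The 2 subunits of one channel parted: Sec61b, the small subunit of the translocon, was at 1.07 ± 0.20 (adjusted p = 0.0169), and Sec61a1, its pore, at -1.27 ± 0.19 (adjusted p = 0.00785). Sec61a1 mRNA was at 71.2 and 68.2 CPM against 205 and 161 CPM and its footprints at 501 and 541 CPM against 428 and 457 CPM. Hyou1, a chaperone of the same compartment, was at -1.09 ± 0.20 (adjusted p = 0.0136). Without either RPF LPS + DEX library 0 members of the proteasome and endoplasmic reticulum lists were called, and 1 of the heat shock list. Without RPF basal replicate 1, 3 proteasome subunits, 1 heat shock gene and no endoplasmic reticulum gene were higher, and without RPF basal replicate 2 these counts were 2, 1 and 0. Without mRNA LPS + DEX replicate 1 they were 4, 2 and 2, and without centring 3, 2 and 1. The lower count of the endoplasmic reticulum list was 7 without centring, 6 without mRNA LPS + DEX replicate 2 and 1 without RPF basal replicate 1.

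Of 59 replication-dependent histone genes, whose mRNAs mostly lack a poly(A) tail, 12 had lower TE and 0 higher; without mRNA basal replicate 1, 14 were lower and 2 higher. With all 8 libraries the 12 lower genes were 20.3% of the list, against 2.94% of all genes. Hist1h2ap was at 18.3 and 17.3 CPM in basal mRNA and 85.0 and 62.9 CPM with LPS + DEX, with footprints at 412 and 545 CPM and at 325 and 366 CPM, and its TE change was -2.10 ± 0.26 (adjusted p = 0.00329). Hist1h2ah was at -2.37 ± 0.30 (adjusted p = 0.00339). The summed mRNA of the list was 3197 CPM in mRNA basal replicate 1, 273 CPM in replicate 2 and 808 and 559 CPM with LPS + DEX, against 27803 to 45688 CPM in the footprint libraries. Many of these genes are nearly identical, so reads may be shared among them, and poly(A) selection and the level of the mRNA cannot be told apart here. The number of lower members was 2 without either RPF LPS + DEX library, 4 and 6 without RPF basal replicates 2 and 1, 6 without mRNA LPS + DEX replicate 1, 19 without mRNA basal replicate 2 (with 5 higher) or without centring and 4 with limma-voom.

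Other lists held few calls. Of the splicing factors 11.6% were higher and 6.98% lower, against 4.28% and 2.94% of all genes. Their number of higher members was 0 without centring and 1 with log2(CPM + 5) or a replicate block. It was 8 with a mean of 30 reads per assay or with all 12 libraries. Of 43 splicing factors, 5 were higher, Srsf10 at 1.21 ± 0.31 (adjusted p = 0.0476) the largest, and 3 lower; 2 and 2 were called without mRNA basal replicate 1, 11 and 2 without mRNA LPS + DEX replicate 2, and 0 without either RPF LPS + DEX library. Of 48 lysosomal genes, 2 were higher, the proton pump subunits Atp6v1f (1.02 ± 0.18, adjusted p = 0.014) and Atp6v0b (0.96 ± 0.22, adjusted p = 0.0331), and 3 lower, close to the 4.28% and 2.94% of all genes; without centring 15 were lower. Fth1, the heavy chain of the iron store ferritin, had mRNA at 25281 and 27010 CPM against 17395 and 15593 CPM and footprints at 815 and 836 CPM against 740 and 729 CPM. This gave a TE change of 0.83 ± 0.11 (adjusted p = 0.00518), and Ftl1, the light chain, was at 0.20 ± 0.19. The macrophage markers Csf1r, the receptor for the growth factor M-CSF, and Sirpa, an inhibitory receptor, were lower at -0.77 ± 0.15 (adjusted p = 0.019) and -0.73 ± 0.13 (adjusted p = 0.0149). Tyrobp and Lyz2 were higher at 0.62 ± 0.14 (adjusted p = 0.0297) and 0.56 ± 0.13 (adjusted p = 0.0375), and neither was called without mRNA basal replicate 1. None of 21 glycolysis or 41 cell cycle genes was called with 8 libraries, against 4.28% higher and 2.94% lower over all genes. Without centring 5 and 6 of them were lower, and without mRNA LPS + DEX replicate 2 there were 4 glycolysis genes lower, 2 cell cycle genes lower and 2 higher. In the lysosomal, macrophage and iron lists together, Fth1 was the 1 gene still called without RPF LPS + DEX replicate 2, and 0 were called without its replicate 1.

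In 4 of the 12 genes with the highest TE among those the fixed rule allows, Neurl4, Fblim1, Acp4 and Polr3gl, the footprint change was larger than the mRNA change. Neurl4, a protein that binds an E3 ubiquitin ligase at centrioles, had footprints at 85.5 and 76.3 CPM in basal cells and 1499 and 945 CPM with LPS + DEX, with mRNA at 52.9 and 48.7 CPM and at 90.9 and 90.8 CPM. The resulting TE change was 3.37 ± 0.28 (adjusted p = 0.00122). Fblim1, which links filamin to integrin adhesions, was at 24.4 and 23.0 CPM against 194 and 196 CPM in footprints, with a TE change of 2.72 ± 0.29 (adjusted p = 0.0025). Acp4, an acid phosphatase, had footprints at 28.2 and 1.97 CPM in basal cells, which differ from each other by more than 10-fold, and at 576 and 184 CPM with LPS + DEX, so its value of 5.30 ± 1.27 (adjusted p = 0.0381) is loosely fixed. Polr3gl, a subunit of RNA polymerase III, was at 2.96 ± 0.60 (adjusted p = 0.0214). The values are given per gene and do not show where within a gene the footprints lie.

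In the other 8 of these 12 the mRNA change was the larger, and it was below 0. Pin4, a peptidyl-prolyl isomerase, had mRNA at 44.7 and 63.9 CPM against 13.8 and 21.3 CPM and footprints at 32.1 and 44.7 CPM against 45.4 and 43.1 CPM, with a TE change of 2.13 ± 0.38 (adjusted p = 0.0136). Eny2, of the SAGA and mRNA export complexes, was at 2.04 ± 0.40, Polr2k, a small subunit shared by the RNA polymerases, at 2.04 ± 0.34, and Rpl22l1, a relative of Rpl22, at 1.94 ± 0.35. Smim26 (1.99 ± 0.43) and Gadl1 (1.93 ± 0.33) complete the set with Tmsb4x and mt-Nd3. The adjusted p of these 5 lay between 0.0103 and 0.027.

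Among the 12 lowest, Cdan1 and Sh3rf1 had the most basal footprints. Cdan1, which is mutated in a congenital anemia, was at 347 and 603 CPM in basal footprints and 67.7 and 55.1 CPM with LPS + DEX, with mRNA at 28.5 and 20.6 CPM against 42.3 and 32.8 CPM. The TE change came to -3.15 ± 0.39 (adjusted p = 0.00307). Sh3rf1, an E3 ligase and scaffold of JNK signalling, was at 280 and 65.1 CPM against 13.3 and 6.54 CPM in footprints, a spread of more than 4-fold between the basal libraries, and at -4.37 ± 0.82 (adjusted p = 0.0164). Mbd6, a methyl-CpG-binding-domain protein, was at -2.91 ± 0.41 (adjusted p = 0.00579) and differed mainly in mRNA, 12.9 and 17.3 CPM against 60.5 and 75.3 CPM. The other 9 were 5830411N06Rik, Fgd5, Shank3, Psd, Xylb, Cep170b, Rnd1, Dgkq and Caskin2, from -4.73 to -2.66. For 5830411N06Rik and Psd the footprints after LPS + DEX were at or under 3 reads in both libraries, so the fitted values are no measure of size.

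Nob1, an endonuclease that matures the RNA of the small ribosomal subunit, was the 1 called gene of 40 in the nucleolar list (2.5% lower, all genes 2.94%). Its footprints were at 456 and 508 CPM in basal cells and 99.2 and 100.4 CPM with LPS + DEX, while its mRNA was at 71.2 and 75.2 CPM and at 103 and 91.3 CPM. The footprint groups stood far apart, and the TE change was -2.33 ± 0.19 (adjusted p = 0.00122), with or without mRNA basal replicate 1.

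Whether DEX altered the TE change was tested over all 12 libraries as LPS + DEX against LPS, since the TE changes of LPS + DEX and of LPS against basal share the basal libraries and cannot be compared as if independent. Of 9412 genes, 6 were called (0.0637%), 2 higher and 4 lower with DEX, and 597 had an unadjusted p under 0.05. For the 401 genes with higher TE after LPS + DEX the median TE change of LPS against basal was 1, and for the 275 with lower TE it was -0.97. The median TE change of the ribosomal proteins was 0.94 with LPS + DEX and 0.85 with LPS, and 0 of them were called between the treatments. A miss of the threshold does not show that the TE changes of the 2 treatments were equal. For the mitochondrially encoded genes the medians were 0.48 and 2.04 with 0 called, and for the glucocorticoid induced genes -0.80 and -0.17 with 0 called. Sdc4 was at -2.43 with LPS + DEX and -1.10 with LPS (adjusted p of the difference 0.0972), Per1 at -1.79 and -0.33 (0.372), and Neurl4 at 3.37 and 0.61 (0.0584), none past the threshold.

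**Figure D4:**
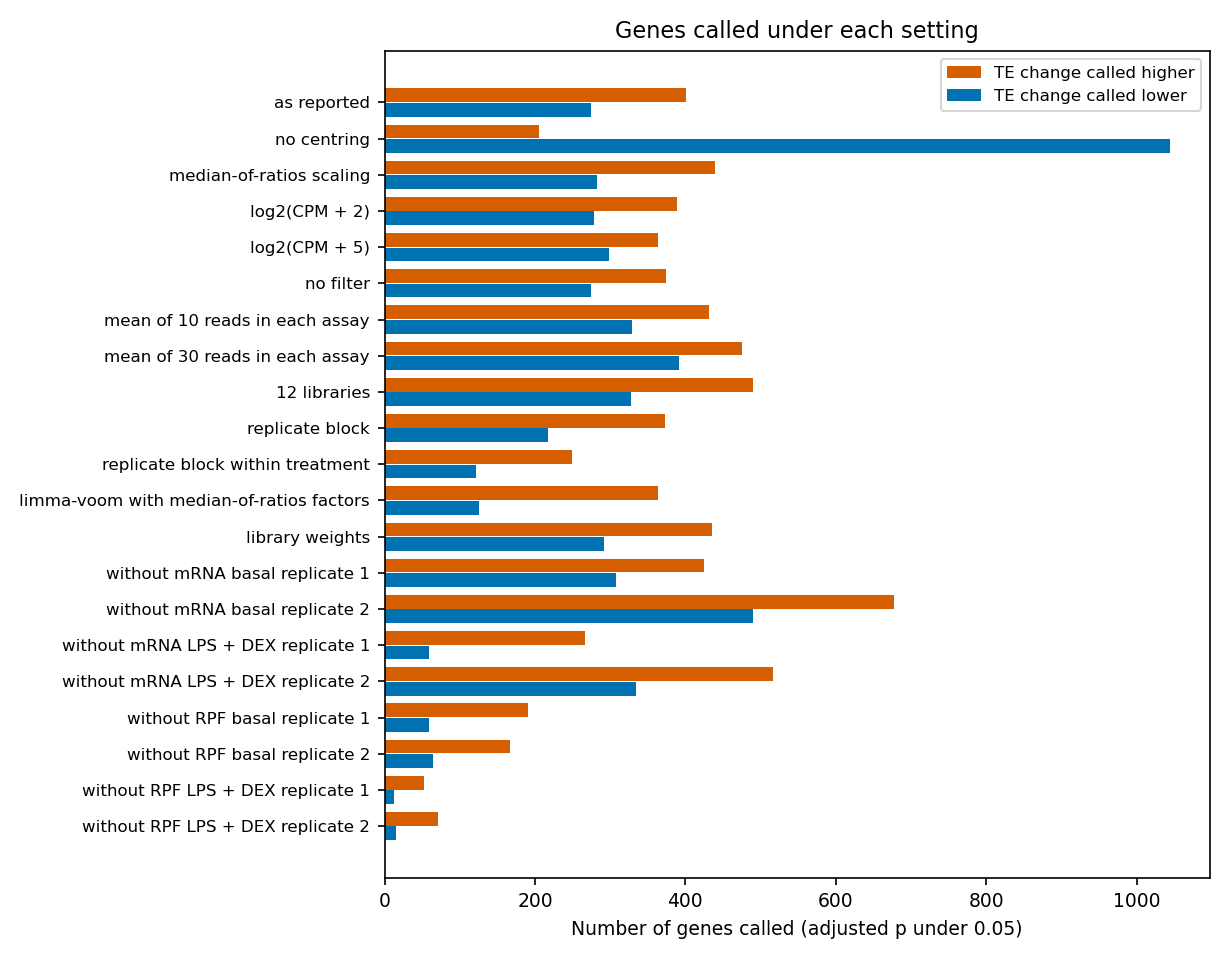
Number of genes with higher and lower TE in LPS + DEX against basal under each setting, bars starting at 0. The counts are 401 and 275 as reported and fall to 53 and 12 without RPF LPS + DEX replicate 1.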

How the data were processed

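Per Ensembl gene and library, the authors deposited CPM (reads scaled to the library total) plus 1, as read from the values: the lowest is 1, and after subtracting 1 100% of values are whole multiples of 1 read (tolerance 0.1). The sources used here name no aligner, build, annotation or strand handling. Libraries were grouped by their titles. limma-trend (limma 3.58.1, R 4.3.3) was fitted to log2(CPM + 1) over 8 libraries with 4 group means; the interaction is the TE change, centred on its median per assay. Fold changes on this scale understate those of low genes. A gene entered with 10 or more reads, at median depth, in 2 or more libraries and a total of 15 or more. Tests are two-sided with Benjamini-Hochberg adjustment over all genes tested, and the script was tested on simulated data. Depth was 1310291 to 2529666 reads.

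The members, the 27 gene lists and the tests were chosen with earlier results of these data known. Named genes are the 12 highest and 12 lowest called (sign held in 16 library choices, mean of 10 reads per assay), the 4 largest called per list and 27 fixed genes; others named for a short count or as a contrast were chosen after their values were seen. Alternatives changed scaling, pseudocount, filter, replicate block, test, weights and libraries. Gene symbols matched 9521 of 9621 identifiers. Some results of the lists are not reported here.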

Additional observations from a re-analysis of the deposited data

Results flagged for a closer look

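For 6 genes the TE change of LPS + DEX against basal differed from that of LPS against basal, tested as LPS + DEX against LPS over 12 libraries (limma, adjusted p under 0.05). In each the mRNA part lay between -0.13 and 0.24 and the footprints carried the difference, and calls of this comparison were few and changed with single libraries.

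Gabre, a subunit of the GABA-A receptor, differed by -3.67 ± 0.51 (adjusted p = 0.0194), with footprints at 18.3 and 23.7 CPM in basal cells, 92.8 and 92.5 CPM with LPS and 5.44 and 7.09 CPM with LPS + DEX. The unnamed gene Gm20594 differed by -3.35 ± 0.47 (adjusted p = 0.0194), with footprints at 19.8 and 14.5 CPM in basal cells, 97.7 and 69.3 CPM with LPS and 10.9 and 4.36 CPM with LPS + DEX. Ttn, the muscle protein titin, differed by -1.92 ± 0.29 (adjusted p = 0.034), with footprints at 23.7 and 23.0 CPM in basal cells, 32.6 and 40.1 CPM with LPS and 9.68 and 12 CPM with LPS + DEX. Dok1, an adaptor that dampens tyrosine kinase signalling, differed by -1.85 ± 0.26 (adjusted p = 0.0194); its footprints were at 148 and 152 CPM with LPS and 51.4 and 38.2 CPM with LPS + DEX, the latter next to 54.2 and 42.7 CPM in basal cells.

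In the other direction, Sdhb, the iron-sulfur subunit of succinate dehydrogenase, differed by 1.18 ± 0.15 (adjusted p = 0.0194). Its footprints were at 257 and 233 CPM in basal cells, 134 and 135 CPM with LPS and 296 and 286 CPM with LPS + DEX. E2f4, a repressor of cell cycle genes, differed by 1.29 ± 0.21 (adjusted p = 0.0487). Its footprints were at 84.0 and 90.1 CPM in basal cells, 36.2 and 32.8 CPM with LPS and 81.7 and 75.8 CPM with LPS + DEX. Gm20594, Dok1 and E2f4 were not called in LPS + DEX against basal (limma, adjusted p = 0.698, 0.574 and 0.854). The 2 footprint libraries of LPS were the shallowest of the study, at 829415 and 821946 reads; the part of that depth in these 6 results was not tested.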

How the results depend on the processing

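None of the 676 called genes changed sign under the 20 alternatives to the 8-library fit in which it was tested. The alternatives reuse the libraries that the genes were called from, and each sign already held in the 16 library choices. The kept signs are therefore no separate support. Without centring 205 genes were higher and 1045 lower, a shift of 0.33 in every TE change by construction; with a replicate block within treatment 249 and 121; limma-voom with median-of-ratios factors gave 126 lower, the cause not tested. With 1 library left out the counts ran from 53 to 677 higher and from 12 to 490 lower, where a group left with 1 library is assumed to vary like the others. Median-of-ratios scaling (439 and 282), other pseudocounts and filters, 12 libraries (490 and 328) and library weights stayed within 1.5 times. For LPS + DEX against LPS, 6 genes were called, 20 with log2(CPM + 2), 18 with a mean of 10 reads per assay, 26 with library weights, and 0 to 10 with 1 library left out. The limma-voom and library weight alternatives were chosen after seeing the data. Same-numbered libraries deviated together little (correlations from -0.015 to 0.099). Read noise in low genes also lowers such correlations, so they do not settle whether the numbers pair libraries. A replicate block gave 373 higher and 218 lower, and 4 for LPS + DEX against LPS. Count models and TMM factors were planned but not run, and TE by protein length was not computed. Depth limits genes near 3 reads.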
